A study of Mus musculus with 11 samples.

Results

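The rows of 3 circadian clock genes, Per1, Cry2 and Nr1d1, were examined among the ribosome-associated transcripts of hippocampal excitatory neurons after sleep deprivation. They are 4 of the 63244 transcript rows of the count table and were taken by their UCSC identifiers: 2 rows of Per1 (uc007jpf.1 and uc007jpg.2), 1 of Cry2 (uc008kxy.2) and 1 of Nr1d1 (uc007lhh.2). By the GENCODE transcripts assigned to them, uc007jpf.1 is called short Per1, uc007jpg.2 long Per1 and uc008kxy.2 main Cry2. All 4 passed the filter on low counts (at least 1 count in at least 5 libraries), as did 29599 transcripts in total. The rows were chosen with results of the same libraries known, so the tests below are not independent evidence of their direction.

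RNA came from male CaMKIIα-Cre:RiboTag mice of 2 to 3 months in both groups. In these mice a Cre recombinase driven by the CaMKIIα promoter, which is active in forebrain excitatory neurons, switches on an HA-tagged form of the ribosomal protein Rpl22, and RNA bound to tagged ribosomes is pulled down with an antibody to the tag. There were 5 libraries from non-sleep deprived (NSD) mice and 6 from sleep deprived (SD) mice kept awake by gentle handling for 5 h from the start of the light period, each from the pooled hippocampi of 2 mice. Beside a value with ±, SD in brackets is the standard deviation. NSD mice were killed at the same time as SD mice, so both groups were sampled at the same phase of the day. Transcripts received 22074914 to 29549339 counted reads in each library, 22.8% to 31.9% of all reads. Reads that fit more than 1 transcript were set aside as ambiguous, and these were 37.2% to 52.0% of a library.

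The molecular clock is a feedback loop of transcription. The activators CLOCK and BMAL1 bind E-boxes (CACGTG and related letters) in front of the Per and Cry genes, and the PER and CRY proteins return to the nucleus to inhibit them. Nr1d1 encodes REV-ERBα, a nuclear receptor that is itself driven through E-boxes and represses Arntl, the gene of BMAL1. Per1 also carries cAMP response elements, through which neuronal activity and light can raise it. The hippocampus holds such a clock, which is set by the suprachiasmatic nucleus and by behaviour.

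Of the 26 marker genes of hippocampal cell types that were looked for, 5 had a row with a name. Levels are in CPM (counts per 1000000 counted reads, scaled by upper-quartile factors). Of the excitatory neuron genes, the named row of Camk2a, the gene of the CaMKIIα kinase, was at 2.32 to 2.76 CPM in NSD and 1.48 to 2.31 CPM in SD (log2 fold change -0.41). These ranges nearly met but did not overlap, and this order was found in 0.361% of all transcripts tested. A row counts only reads that fit 1 transcript, so its level is not that of the gene. Neurod2 was at 301.8 to 386.4 CPM in NSD and 282.8 to 451.9 CPM in SD (log2 fold change 0.20). The inhibitory neuron genes Gad2 and Slc32a1 (4 rows) summed to 22.3 to 101.0 CPM in NSD and 14.9 to 46.8 CPM in SD, with log2 fold changes of -1.39 for the most abundant Gad2 row and -1.65 for Slc32a1. The oligodendrocyte gene Mbp was at 167.4 to 194.8 CPM in NSD and 178.2 to 229.8 CPM in SD (log2 fold change 0.21). In edgeR's quasi-likelihood test the unadjusted p were 0.0274 for Camk2a, 0.114 for Neurod2, 0.00031 for the Gad2 row, 0.000632 for Slc32a1 and 0.0323 for Mbp, and none of the named marker rows passed FDR < 0.05 or was at 0 in every library. The astrocyte, microglia and endothelial genes of the list had no named row. The part of these markers in the results below was not tested.

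Per1 lies on chromosome 11 from 69095217 to 69109960 (plus strand, GRCm38, the build also called mm10). GENCODE vM21 lists 6 transcripts of the gene. Short Per1 has 18 exons and 3507 exonic bases, and its first exon of 87 bases starts 3731 bases upstream of the first exon of long Per1. Long Per1 has 23 exons and 4671 exonic bases. The internal exons are shared, and the transcripts part at the end of exon 18, where long Per1 splices to exon 19 and short Per1 reads on for 835 bases, nearly all of them in an intron of long Per1. Short Per1 therefore ends its reading frame early, with 827 codons against 1291 in long Per1. No more than 243 bases of short Per1 and 61 of long Per1 are in no other GENCODE transcript of the gene. The bases at the point where the transcripts part are shown because reads across it differ between them. The lower case letters are the 20 shared bases that end exon 18 (chr11:69105604-69105623). The capitals are the 32 bases that follow, which for long Per1 come from exon 19 (chr11:69106453-69106484) and for short Per1 from the read-through stretch up to and including its stop codon (chr11:69105624-69105655).
long Per1: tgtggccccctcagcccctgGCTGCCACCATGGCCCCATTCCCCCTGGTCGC
short Per1: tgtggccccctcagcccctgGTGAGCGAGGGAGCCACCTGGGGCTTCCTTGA
These structures are those of the GENCODE transcripts assigned to the rows. The study's text uses another transcript name for the Per1 isoform it found unchanged. Whether uc007jpg.2 has the structure given for long Per1 was therefore not settled here. The UCSC exon models on which the reads were counted were not used here.

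**Figure D1:**
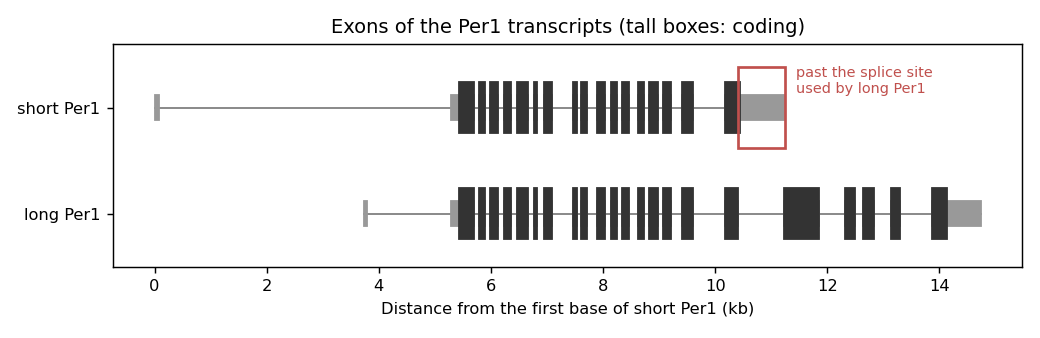
Exons of short Per1 and long Per1 in GENCODE vM21, plotted as distance in kb from the first base of short Per1, with coding parts as tall dark boxes and untranslated parts as low grey boxes. The red frame marks the 835 bases that short Per1 has past the splice site used by long Per1, and the first exons differ by 3731 bases in their start.

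Since the clock genes share promoter motifs in textbook descriptions of the loop, the 250 bases before their RefSeq starts are printed, with letters that match a searched motif in capitals. RefSeq (GRCm38.p6) has a pair of starts for Per1, of which the upstream one lies next to the GENCODE start of long Per1, and 1 each for Cry2 and Nr1d1. Both Per1 windows lie downstream of the GENCODE start of short Per1, and the bases before that start were not searched.
Per1 upstream start, chr11:69098699-69098948, plus strand: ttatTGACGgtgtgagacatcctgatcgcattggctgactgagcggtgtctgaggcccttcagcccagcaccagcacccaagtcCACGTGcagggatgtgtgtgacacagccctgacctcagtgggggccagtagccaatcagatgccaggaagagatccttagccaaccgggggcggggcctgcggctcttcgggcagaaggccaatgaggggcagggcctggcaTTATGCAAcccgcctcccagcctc
Per1 downstream start, chr11:69099902-69100151, plus strand: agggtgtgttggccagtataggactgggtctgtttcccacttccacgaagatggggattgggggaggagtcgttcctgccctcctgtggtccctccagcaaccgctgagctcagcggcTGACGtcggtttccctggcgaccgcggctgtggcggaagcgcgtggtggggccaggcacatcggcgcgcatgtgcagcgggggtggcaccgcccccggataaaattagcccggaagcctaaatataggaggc
Cry2, chr2:92434070-92434319, minus strand: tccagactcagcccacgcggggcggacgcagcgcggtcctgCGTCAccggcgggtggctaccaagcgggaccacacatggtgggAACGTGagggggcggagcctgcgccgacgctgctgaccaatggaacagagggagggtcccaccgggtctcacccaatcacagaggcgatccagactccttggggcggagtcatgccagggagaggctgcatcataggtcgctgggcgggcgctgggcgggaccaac
Nr1d1, chr11:98775378-98775627, minus strand: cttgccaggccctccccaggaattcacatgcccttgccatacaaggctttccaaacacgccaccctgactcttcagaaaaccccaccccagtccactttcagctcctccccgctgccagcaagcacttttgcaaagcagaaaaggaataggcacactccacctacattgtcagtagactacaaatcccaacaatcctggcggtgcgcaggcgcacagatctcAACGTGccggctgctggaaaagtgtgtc
The E-box CACGTG was found in front of the long Per1 start, 166 bases before it, and in 6.02% of the 32851 RefSeq windows of this length. Its variant CACGTT, which reads AACGTG on the other strand, was found before Cry2 (166 bases) and Nr1d1 (28 bases) and in 3.85% of the windows. TGACG, the leading letters of a cAMP response element, was found in both Per1 windows and that of Cry2 and in 17.8% of the windows. The whole element TGACGTCA was in none of the 4 windows and in 1.55% of all. TTATGCAA, a relative of the D-box, was found 24 bases before the long Per1 start and in 0.694% of the windows. The D-box letters TTATGTAA and TTACGTAA (0.931% of the windows) and the ROR element letters TAGGTCA and TGGGTCA (5.38%) did not occur in the 4 windows. Both strands were searched, TGACG lies within TGACGTCA, and a match is a description of letters only.

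Short Per1 was the clock row with the largest difference in log2 fold change of the 4. In the NSD libraries it had 5.71 CPM in replicate 2, 8.12 CPM in replicate 3, 4.93 CPM in replicate 4, 9.51 CPM in replicate 5 and 6.83 CPM in replicate B. In the SD libraries it had 4.48 CPM in replicate 1, 4.57 CPM in replicate 2, 4.17 CPM in replicate 3, 4.46 CPM in replicate 4, 4.52 CPM in replicate 6 and 4.85 CPM in replicate D. Each SD library lay below each NSD library, although NSD replicate 4 was just above SD replicate D. Every SD library below every NSD library was found in 0.361% of all transcripts tested, and the reverse order in 0.459%. Mean levels were 7.02 ± 1.84 CPM in NSD (SD, n = 5) and, 35.8% lower, 4.51 ± 0.220 CPM after deprivation (SD, n = 6) (two-sided exact permutation test, p = 0.00216, the smallest that 5 libraries against 6 allow). The log2 fold change was -0.64 with a standard error of 0.155, an unadjusted p of 0.000577 and an FDR of 0.238 from edgeR's quasi-likelihood test, so the row did not pass FDR < 0.05 over all transcripts. In pooled tissue, fewer cells with the transcript and less of it per cell cannot be told apart. In all, 15 transcripts (0.0507%) passed, and 0 of the 4 clock rows were among them. That count rested on single libraries and on the filter, with 0 to 78 transcripts when 1 library was left out and 311 (1.97%, of 15757 tested) with a minimum of 10 counts per library, where 3 of the 4 clock rows passed.

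The call for short Per1 depended on the tool and the filter, while the size of the difference moved little. Its FDR was 0.00736 with DESeq2, 0.0351 with edgeR's filterByExpr and 0.0237 with a minimum of 10 counts per library, where 0.449%, 0.993% and 1.97% of the transcripts tested were called. It did not pass with TMM factors (FDR = 0.0987), edgeR's likelihood ratio test (0.109), a shared upper quartile (0.0982), a filter of 1 count in 1 library (0.308) or the label series as a covariate (0.395). Its log2 fold change was between -0.75 and -0.51 when each library was left out in turn. The coefficient of variation was 26.2% in NSD and 4.87% in SD with upper-quartile factors, and 17.9% and 10.8% with library totals only, and the difference in spread was not tested. The row rested on 108 to 227 reads per library.

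Long Per1 gave another picture. It had 4.01, 4.28, 5.0, 4.06 and 6.20 CPM in NSD replicates 2, 3, 4, 5 and B, and 3.91, 4.82, 3.39, 4.50, 5.05 and 5.32 CPM in SD replicates 1, 2, 3, 4, 6 and D. The groups overlapped over most of their range, and the highest library of all was NSD replicate B. The means were 4.71 ± 0.923 CPM (SD, n = 5) and 4.50 ± 0.728 CPM (SD, n = 6), with p = 0.68 in the exact permutation test. The log2 fold change was -0.07 with a standard error of 0.16 (FDR = 1.0 from edgeR's test), and its sign turned without NSD replicate B, to 0.042. On the CPM scale the difference of -0.214 turned to 0.159 without NSD replicate B and to 0.0067 without SD replicate 3. The row rested on 88 to 149 reads per library.

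**Figure D2:**
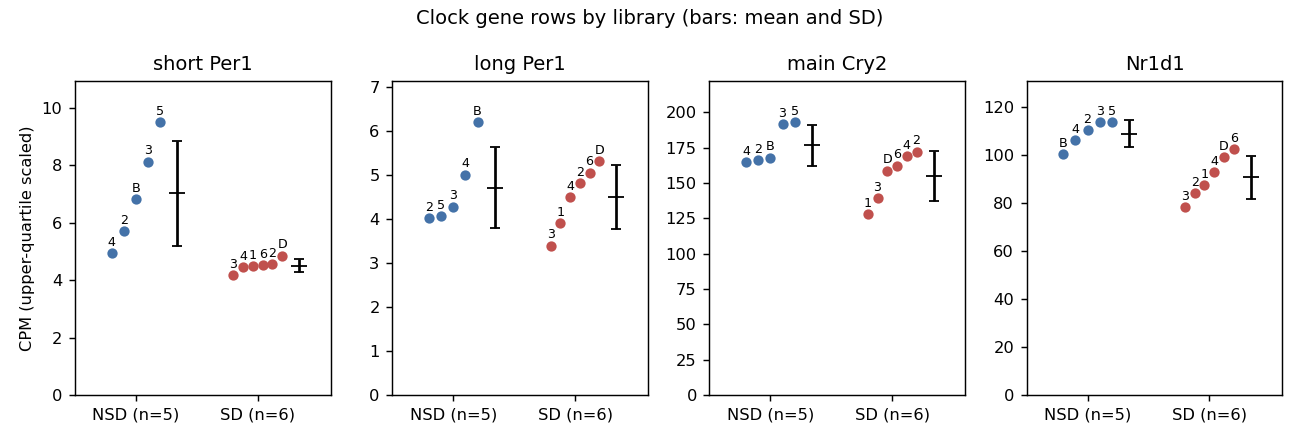
CPM of the 4 clock gene rows in each library, with NSD in blue and SD in red, each point labelled with its replicate and black bars for the mean and SD, on axes that start at 0. Short Per1 values of the 6 SD libraries lie between 4.17 and 4.85 CPM and below all 5 NSD libraries, whereas the groups overlap for long Per1, main Cry2 and Nr1d1.

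Whether the Per1 rows moved unequally was tested on their relative use, which does not depend on library size. It is a share of counted reads and not of transcripts. The stretches in no other GENCODE transcript of the gene are unequal, at 243 bases for short Per1 and 61 for long Per1. Short Per1 made up 58.7% of the reads of both rows in NSD replicate 2, 65.5% in replicate 3, 49.6% in replicate 4, 70.1% in replicate 5 and 52.4% in replicate B. In SD it made up 53.4%, 48.6%, 55.1%, 49.8%, 47.2% and 47.7% in replicates 1, 2, 3, 4, 6 and D. NSD replicates 2, 3 and 5 lay above all SD libraries, and NSD replicates 4 and B lay within the SD range. With 196 to 324 reads behind each share, the 95% Wilson interval ran from 64.9% to 74.8% in NSD replicate 5 and from 41.3% to 53.2% in SD replicate 6, and these intervals cover counting error only. The mean share was 59.3% ± 8.61 (SD, n = 5) in NSD and 50.3% ± 3.24 (SD, n = 6) in SD (two-sided exact permutation test, p = 0.0433). The log2 ratio of the rows fell from 0.55 ± 0.522 (SD, n = 5) to 0.02 ± 0.186 (SD, n = 6), with the same p of 0.0433 in the exact permutation test.

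That difference sat close to the threshold. When each library was left out in turn, the difference in share was between -11.4 and -6.25 percentage points and p between 0.0143 and 0.103 in the exact permutation test, and it no longer passed 0.05 without any 1 of NSD replicates 2, 3 and 5 or SD replicates 1, 2, 4, 6 and D.

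**Figure D3:**
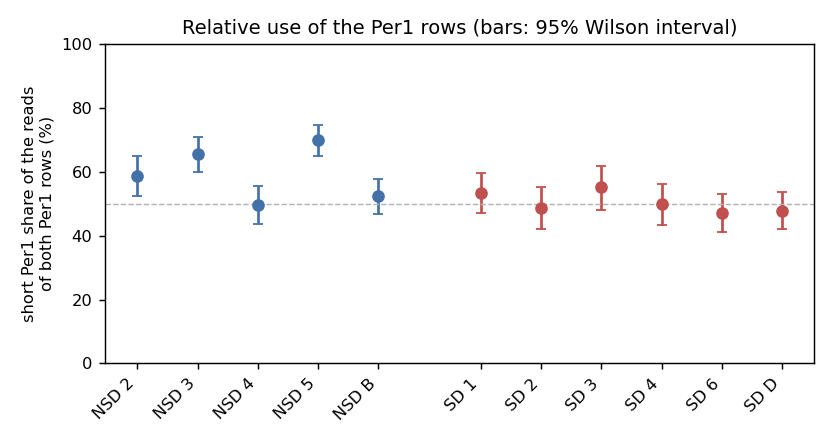
Share of short Per1 among the reads of both Per1 rows, in percent, for each library, with bars for the 95% Wilson interval and a dashed line at 50%. NSD replicates 3 and 5 stand highest, at 65.5% and 70.1%, and the SD libraries lie between 47.2% and 55.1%.

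Cry2 encodes a cryptochrome, the partner of the PER proteins in inhibiting CLOCK and BMAL1. It lies on chromosome 2 from 92403646 to 92434043 (minus strand). Besides its main row, the Cry2 rows uc008kya.2 and uc008kxz.2 have names. Main Cry2 had 166.2, 191.8, 164.5, 193.2 and 168.0 CPM in NSD replicates 2, 3, 4, 5 and B, and 127.7, 172.2, 139.3, 169.1, 162.2 and 158.8 CPM in SD replicates 1, 2, 3, 4, 6 and D. SD replicates 1 and 3 were lowest, while SD replicates 2 and 4 reached into the NSD range. The mean was 176.7 ± 14.4 CPM in NSD (SD, n = 5) and, 12.4% lower, 154.9 ± 17.6 CPM in SD (SD, n = 6), with p = 0.0758 in the exact permutation test. On this upper-quartile scale the log2 fold change was -0.19 with a standard error of 0.0957, and edgeR's quasi-likelihood test gave an unadjusted p of 0.0611 and an FDR of 1.0. The FDR was 0.012 with filterByExpr and 0.00274 with a minimum of 10 counts per library, where the row passed.

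The spread of main Cry2 within the groups depended on how libraries were scaled, more than its difference did. With each library scaled only by its total, a setting chosen after seeing the data, main Cry2 was at 166.9 to 183.4 CPM in NSD and at 149.6 to 158.4 CPM in SD, so the groups did not overlap. The means on that scale were 177.8 ± 6.49 CPM (SD, n = 5) and 153.0 ± 3.06 CPM (SD, n = 6), with p = 0.00216 in the exact permutation test. With TMM factors they were 177.3 ± 8.34 CPM (SD, n = 5) and 153.7 ± 11.4 CPM (SD, n = 6), with p = 0.00433 in the exact permutation test, against p = 0.0758 with upper-quartile factors. The log2 fold change was -0.22 with totals only and -0.21 with TMM factors, and the FDR from edgeR's test was 0.003 and 0.336. For short Per1 the exact permutation p was 0.00216 under all 3 scalings, and for Nr1d1 it was 0.0108, 0.00433 and 0.0108 with upper-quartile factors, TMM factors and totals.

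Rows uc008kya.2 and uc008kxz.2 were low and varied widely. Row uc008kya.2 was at 2.25 to 7.74 CPM in NSD and 1.65 to 7.34 CPM in SD, a log2 fold change of -0.28 (standard error 0.338), and uc008kxz.2 at 0.432 to 1.16 and 0.251 to 1.04 CPM, a log2 fold change of -0.30 (standard error 0.352). In GENCODE vM21 the 366 bases that only uc008kya.2 has, and the 1748 bases that only uc008kxz.2 has, lie in introns of main Cry2. Main Cry2 took 94.9% to 98.6% of the reads of the 3 rows in NSD and 94.0% to 98.8% in SD, and this share did not pass a test between the groups (difference 0.114 percentage points, two-sided exact permutation test, p = 0.903).

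The share of reads outside annotated transcripts was 10.9% to 27.6% in NSD and 9.97% to 21.1% in SD, and the groups overlapped (exact permutation test, p = 0.53). Across the 11 libraries, with group means removed, it correlated with uc008kya.2 (Pearson's r = 0.88, Spearman's rho = 0.92) and uc008kxz.2 (r = 0.79, rho = 0.72), and inversely with main Cry2 (r = -0.78, rho = -0.85). The adjusted permutation p over the 6 rows compared were 0.00096 and 0.00162 for uc008kya.2, 0.00806 and 0.0321 for uc008kxz.2, and 0.00174 and 0.00162 for main Cry2 (r and rho), and without NSD replicate 2 and SD replicate 1 the r were 0.93, 0.70 and -0.86. The inverse relation of main Cry2 was common to many transcripts and depended on the scaling. With upper-quartile factors the median r over 14539 transcripts of at least 1 CPM was -0.53 and 24.1% had an r as low as main Cry2. With TMM factors r was -0.65 for main Cry2 against a median of -0.29, and 25.5% had an r as low. With library totals only, r was 0.16 for main Cry2 against a median of 0.20. Both comparisons were added after seeing the data. For uc008kya.2 and uc008kxz.2 it was 0.88 and 0.84 with library totals, and 2.13% and 8.05% of transcripts had an r as high. Short Per1 had r = -0.59 and rho = -0.73 (adjusted permutation p = 0.214 and 0.055). For Nr1d1 (r = -0.25, rho = -0.42, adjusted permutation p = 0.402 and 0.229) and long Per1 (r = -0.36, rho = -0.23, adjusted permutation p = 0.37 and 0.535) no relation passed the test either. Without the same libraries r was -0.71 for short Per1, -0.49 for Nr1d1 and -0.02 for long Per1, and with library totals -0.14, 0.63 and 0.12. When this share entered the model, which was decided once the data had been seen, edgeR's FDR was 0.00341 for short Per1, 0.128 for main Cry2, 0.0732 for Nr1d1 and 0.915 for long Per1.

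Nr1d1 lies on chromosome 11 from 98767932 to 98775333 (minus strand), and 263 of the 2721 exonic bases of the coding Nr1d1 transcript overlap exons of Thra, the thyroid hormone receptor gene on the other strand. The libraries were made with a stranded kit, but the strand setting of the counting is not given in the sources used here. Nr1d1 had 110.0, 113.5, 106.1, 113.6 and 100.1 CPM in NSD replicates 2, 3, 4, 5 and B, and 87.2, 83.9, 78.1, 92.7, 102.2 and 98.8 CPM in SD replicates 1, 2, 3, 4, 6 and D. NSD replicates 2, 3, 4 and 5 lay above all SD libraries, and only SD replicate 6 reached above the lowest NSD library. The means were 108.7 ± 5.70 CPM (SD, n = 5) and 90.5 ± 9.14 CPM (SD, n = 6), 16.7% lower in SD (exact permutation test, p = 0.0108). The log2 fold change was -0.26 with a standard error of 0.087, an unadjusted p of 0.00674 and, in edgeR's test, an FDR of 0.719. Among the settings compared it passed FDR < 0.05 with a minimum of 10 counts per library alone, where its FDR was just under 0.05.

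Of the 4 rows, 2 (short Per1 and Nr1d1) had an unadjusted p below 0.05 in edgeR's test, where 1.91% of all transcripts had such a p and a lower level in SD. All 4 log2 fold changes were below 0, with a median of -0.23 against 0.01 over all transcripts tested. This sign held for all 4 rows in every other fit over all transcripts, and whichever library was left out, except for long Per1 as given above.

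Co-variation of the rows was measured as the correlation of log2 CPM over the 11 libraries with the group means removed, with permutation p adjusted over the 6 pairs. It was highest for short Per1 and main Cry2 (r = 0.54, rho = 0.60, adjusted permutation p = 0.182 and 0.222). For main Cry2 and Nr1d1 it was r = 0.48 and rho = 0.40 (adjusted permutation p = 0.427 and 0.578), and for short Per1 and Nr1d1 r = 0.33 and rho = 0.49 (0.422 and 0.306). For long Per1 it was r = 0.27 and rho = 0.29 with main Cry2 and r = 0.25 and rho = 0.20 with Nr1d1 (adjusted permutation p = 0.582 for r and 0.578 for rho, both pairs), and r = -0.07 and rho = 0.25 with short Per1 (adjusted permutation p = 0.881 and 0.578). None of the 6 pairs passed the test on this measure. Without the pair of libraries farthest from the median of the first row, r was 0.47 for short Per1 and main Cry2, 0.28 for main Cry2 and Nr1d1, 0.34 for short Per1 and Nr1d1, and 0.31, 0.30 and 0.35 for long Per1 with main Cry2, Nr1d1 and short Per1. With TMM factors r was 0.27 for short Per1 and main Cry2, 0.10 for main Cry2 and Nr1d1 and 0.05 for short Per1 and Nr1d1, and for long Per1 0.03 with main Cry2, 0.15 with Nr1d1 and -0.29 with short Per1. With the group means left in, r was 0.74 for short Per1 and Nr1d1, 0.73 for short Per1 and main Cry2 and 0.70 for main Cry2 and Nr1d1. The adjusted permutation p was 0.0328 for each of these r, and 0.0112, 0.109 and 0.187 for rho. The pairs with long Per1 did not pass (r of 0.06 to 0.29). These values also hold the difference between the groups, for which the rows were chosen with results known.

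Within the 6 SD libraries, long Per1 had r = 0.87 with short Per1, 0.81 with Nr1d1 and 0.73 with main Cry2, and rho of 0.89, 0.77 and 0.43. Short Per1 had r = 0.69 with Nr1d1 and 0.40 with main Cry2, and rho of 0.49 and 0.31, and main Cry2 and Nr1d1 had r = 0.41 and rho = 0.14. None of these 6 pairs passed the test, with adjusted p of 0.0833 to 0.443 for r and 0.2 to 0.803 for rho (exact permutation test). Without the pair of libraries farthest from the median of the first row, r was 0.54 for both Per1 rows, 0.53 for long Per1 and Nr1d1 and 0.36 for short Per1 and main Cry2, and it turned negative for long Per1 and main Cry2 (-0.81), main Cry2 and Nr1d1 (-0.89) and short Per1 and Nr1d1 (-0.30). Among the 5 NSD libraries, too few for a correlation, NSD replicate 5 had the most short Per1 of all libraries and one of the lowest long Per1 values of its group, and NSD replicate B had the most long Per1.

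**Figure D4:**
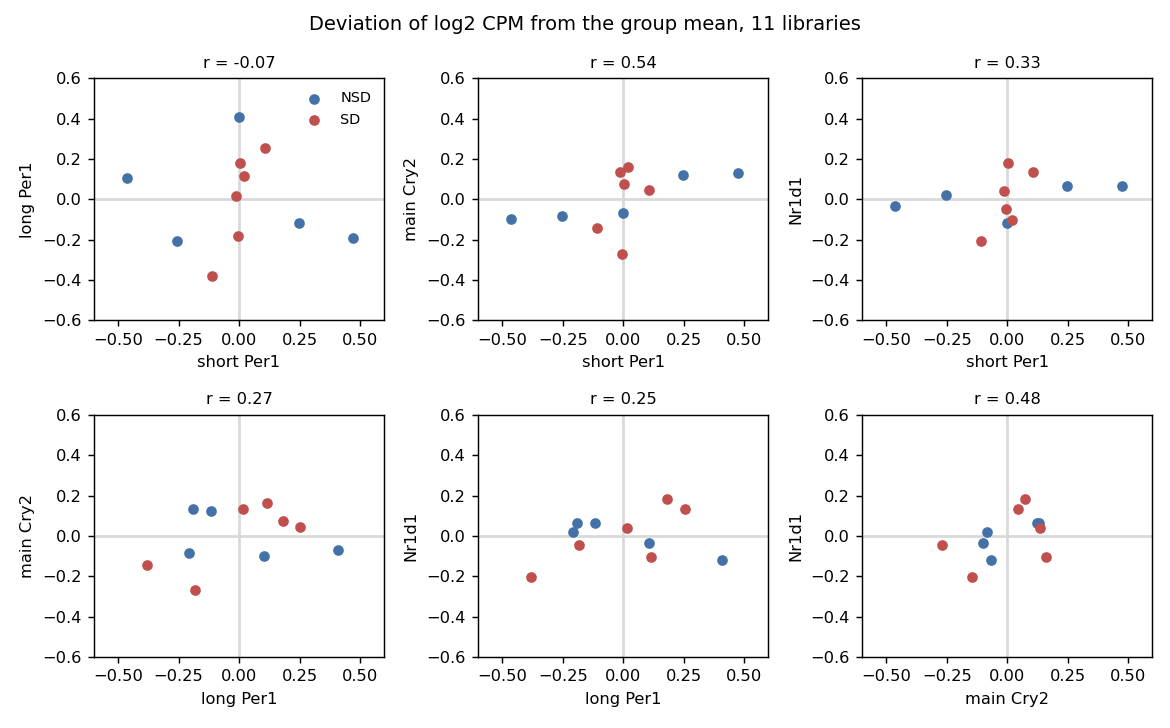
Deviation of log2 CPM from the group mean for each pair of the clock gene rows, 1 point per library, with NSD in blue and SD in red, grey lines at 0 and Pearson's r above each panel. No pair passed the test, the highest being short Per1 and main Cry2 with r = 0.54.

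Of 24 other clock genes looked for, 7 had a row with a name, and 0 of these passed FDR < 0.05 in edgeR's quasi-likelihood test. With an unadjusted p below 0.05, 2 were lower in SD and 0 higher, where 4.45% of all transcripts had such a p in either direction, and the median log2 fold change of the 7 rows was 0.11. Usp2, a deubiquitinase that acts on clock proteins, went from 2.44 ± 0.442 CPM in NSD (SD, n = 5) to 1.63 ± 0.356 CPM in SD (SD, n = 6), with a log2 fold change of -0.58 (standard error 0.196) and p = 0.0108 in the exact permutation test. Rora, a nuclear receptor that activates at the ROR elements where REV-ERBα represses, was at 0.748 ± 0.214 CPM (SD, n = 5) and 0.482 ± 0.0604 CPM (SD, n = 6), with a log2 fold change of -0.62 (standard error 0.265) and p = 0.00433 in the exact permutation test. These values rest on few reads for Rora.

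The D-box factors had no common sign. Dbp, a transcriptional activator driven through E-boxes, was at 95.7 ± 11.7 CPM (SD, n = 5) and 86.5 ± 5.58 CPM (SD, n = 6), with a difference of -0.15 on the log2 scale and p = 0.128 in the exact permutation test. The related activators Hlf and Tef had log2 fold changes of 0.16 and 0.23 (exact permutation p = 0.0584 and 0.55). For Nfil3, a repressor at D-boxes, the fold change was 0.53 on the log2 scale (exact permutation p = 0.141). The Tef row rested on 9 to 33 reads per library and the Nfil3 row on 19 to 71. Nr1d2, which encodes REV-ERBβ, the close relative of the Nr1d1 product, was at 185.4 ± 11.9 CPM (SD, n = 5) and 200.2 ± 13.7 CPM (SD, n = 6), with a log2 fold change of 0.11 and p = 0.0887 in the exact permutation test, against -0.26 for Nr1d1. The difference between these receptors was not tested. Most names belong to rows listed for a low unadjusted p in these libraries (up to 0.0986 in the likelihood ratio test), so the 7 rows are no fair sample of the clock.

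**Figure D5:**
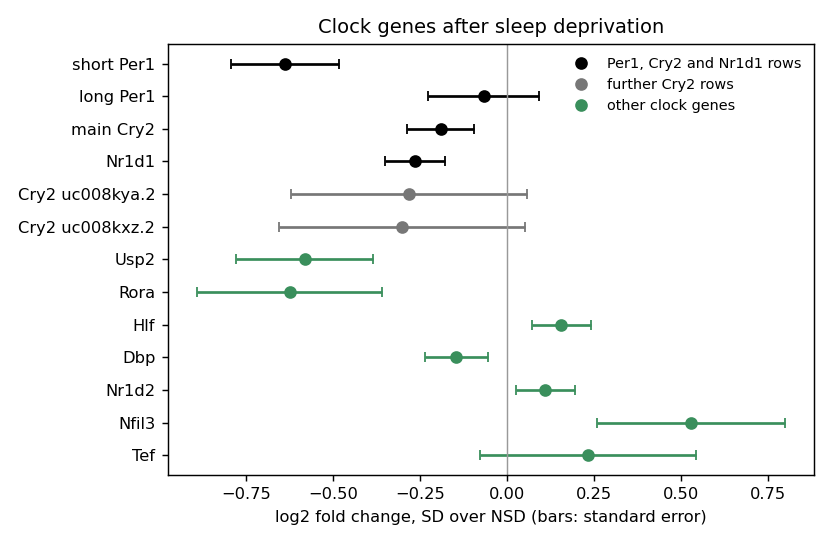
Log2 fold change of SD over NSD from edgeR's quasi-likelihood fit for the 4 clock gene rows (black), the further Cry2 rows (grey) and the named rows of other clock genes (green), with bars of 1 standard error and a line at 0. The black points lie between -0.64 and -0.07, and the 7 green ones between -0.62 and 0.53.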

How the data were processed

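RNA bound to HA-tagged ribosomes was sequenced in 11 libraries. The authors trimmed reads with Trimmomatic 0.36, aligned them with STAR 2.7.5 to mm10 and deposited raw counts per UCSC transcript from HTSeq-count, which drops reads that fit several features or places. The strand setting and annotation release are not given in the sources used here. The 5 tally rows of the table were left out of library sizes and tests, and reads outside annotated transcripts were 9.97% to 27.6% of a library.

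Counts were scaled with upper-quartile factors and fitted with a minimum of 1 count in 5 or more libraries (29599 transcripts) by edgeR 4.0.16 (R 4.3.3, quasi-likelihood test, Benjamini-Hochberg FDR below 0.05). Single values were compared with two-sided exact permutation tests over 462 splits, and correlations with 100000 permutations (scipy 1.17.1), within groups where group means were removed. DESeq2 1.42.0, other normalizations, filters and covariates, and leaving out each library were the alternatives. The fit was tested on simulated data. Nothing says whether libraries of a group came from separate cohorts, so p-values measure the spread between these libraries, each a pool of 2 mice.

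The table gives identifiers without names. A name was used where exactly 1 row had the statistics the study lists beside that name, once its likelihood ratio fit had been repeated, which named 2257 of 63244 rows. The statistics served as a key only, and most named rows were listed for a low unadjusted p in these libraries, up to 0.0986 in that fit. Text names the 4 rows, further named rows of their genes, the named rows of a list of 24 other clock genes and of 26 marker genes, and for each of the 4 rows the 3 named transcripts of at least 1 CPM most like it. The members and lists were chosen with earlier results of these data known, and the TTATGCAA motif after the promoters had been read. Transcript structures are from GENCODE vM21 and promoters from RefSeq.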

Additional observations from a re-analysis of the deposited data

How the results depend on the processing

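The number of transcripts past FDR < 0.05 moved most. Against 15 (13 higher and 2 lower in SD) it was 62 with TMM, 133 with DESeq2 (94 higher, 39 lower), 65 with edgeR's likelihood ratio test (37 and 28), 66 when counts were first brought to 1 shared upper quartile (38 and 28), 191 with filterByExpr (132 and 59), 311 with a minimum of 10 counts per library (200 and 111), 33 with at least 1 count in 1 library (11 and 22) and 8 with label series as a covariate. Of the settings chosen after seeing the data, the share of reads outside annotated transcripts as a covariate gave 167 (85 and 82) and no normalization factors 271 (204 and 67). Leaving out 1 library gave 0 to 78, with 78 without SD replicate 1, 0 without SD replicate D, 1 without NSD replicate B, 2 without NSD replicate 4, 6 without SD replicate 6 and 8 without SD replicate 3. Short Per1 passed with log2 fold changes of -0.64 (DESeq2), -0.65 (filterByExpr and at least 10 counts), -0.68 (covariate for reads outside transcripts) and -0.63 (no factors). Main Cry2 passed with -0.23 (filterByExpr and at least 10 counts) and -0.22 (no factors), and its CPM difference passed at -23.5 with TMM and -24.8 with no factors. Nr1d1 passed with -0.30 (at least 10 counts). Fewer transcripts are tested under the stricter filters, and the cause of the other changes was not tested.

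Without each library in turn, log2 fold changes were -0.75 to -0.51 for short Per1, -0.13 to 0.042 for long Per1, -0.23 to -0.15 for main Cry2 and -0.31 to -0.24 for Nr1d1. CPM differences were -3.04 to -1.89, -0.389 to 0.159, -25.3 to -16.4 (exact permutation p = 0.0397 without SD replicate 2) and -20.5 to -15.7 in that order. Short Per1 share differed by -11.4 to -6.25 points, the log2 ratio by -0.68 to -0.37 and the main Cry2 share by -0.388 to 0.721 points. The latter turned below 0 without NSD replicates 2 or 4 (-0.388, -0.184) or SD replicates 2, 4 or 6 (-0.179, -0.234, -0.123). Co-variation was -0.21 to 0.17 for the Per1 rows (0.04 without NSD replicate 4 and 0.17 without NSD replicate 5), 0.45 to 0.71 for short Per1 and 0.09 to 0.48 for long Per1 with main Cry2, 0.27 to 0.39 and -0.16 to 0.64 with Nr1d1 (-0.16 without SD replicate 3), and 0.35 to 0.69 for main Cry2 and Nr1d1.

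Replicate numbers 2, 3 and 4 occur in both groups. Libraries that share a number deviated in opposite directions (mean r = -0.65). Other pairs had a mean r of 0.07 but a wide range. It ran from -0.77 (NSD replicate 5 with SD replicate 1) to 0.76 (NSD replicate 2 with SD replicate 1). Between NSD replicates 2 and 4 and SD replicates 1 and 3 r was positive. It was also positive between NSD replicates 3 and 5 and SD replicates 2, 4 and 6. Opposition was not particular to a shared number, and its source was not tested. The numbers shared by 6 libraries were not taken to pair them. A replicate block over these 6 libraries called 6 transcripts, against 3 from the same libraries unblocked, and gave log2 fold changes of -0.48 for short Per1 (unadjusted p = 0.128, and 0.0362 unblocked), -0.07 for long Per1 (0.821 and 0.769), -0.12 for main Cry2 (0.584 and 0.38) and -0.38 for Nr1d1 (0.0795 and 0.00758) in edgeR's test. Within the 3 pairs the share differed by -6.77 points and the log2 ratio by -0.40, with p = 0.5 in an exact permutation test that cannot go below 0.25. The values of low rows rest on few reads per library, 88 to 227 for the Per1 rows and 7 to 28 for uc008kxz.2.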

Other observations

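The transcripts most like each clock row were sought by the correlation of their log2 CPM, with group means removed, over the 11 libraries, among 14539 transcripts of at least 1 CPM, of which 1907 had a name. For short Per1 the named transcripts most like it were R3hdm2 (r = 0.90), Sfrs18 (0.88) and Olfr1344 (0.88), and 6 transcripts had r above 0.9. For long Per1 they were Magel2 (0.88), Mob3b (0.86) and Lgals3bp (0.85), with 2 above 0.9, and for Nr1d1 the glutamate receptor gene Grm2 (0.91), Gas8 (0.89) and Sncb (0.89), with 4 above 0.9. Main Cry2 stood apart in number, with Mllt1 (0.99), Marcksl1 (0.99) and Fkbp4 (0.98) and 2631 transcripts above 0.9. All of these values share the same libraries and scaling factors, and they are descriptions without a test. They were computed with upper-quartile factors only, where the coefficient of variation of main Cry2 was 8.17% in NSD and 11.4% in SD. With library totals it was 3.65% and 2.00%, and the part of the scaling in the 2631 transcripts was not tested.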
